A study of Mus musculus with 2 samples.

Results

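Type I interferon-stimulated genes were followed in osteal macrophages (Omacs), the macrophages that line bone surfaces, sorted from ovariectomized (OVX) and sham-operated mice. The 43 genes were taken as a list of symbols, with no threshold on a measured value. Of these, 40 had at least 1 UMI (unique molecular identifier, which counts a captured RNA molecule once), among 18802 genes with a UMI in the matrix. Mx1 and Mx2 had no row in the matrix, and Oas1a had a row and no UMI. A core list of 19 strongly inducible members (Isg15, the IFIT, OAS, Mx and Oasl genes, Rsad2, Cmpk2, Usp18, Irf7, Ifi44, Rtp4 and Cxcl10) was summed separately, and 16 of its genes had a UMI.

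Both groups were adult female BALB/c mice, with both ovaries removed in OVX mice and a sham operation in the control mice. Apart from anesthesia for surgery, no drug treatment is described for the mice used here. Bones were collected 4 weeks after surgery, and cells of several mice per condition were pooled, freed from femurs and vertebrae by enzyme digestion and sorted on CD11b with F4/80 or CD68. OVX cells carried hashtag 1 and sham cells hashtag 2, and both pools went through 1 droplet reaction with the 10x 3′ kit. There is therefore 1 pool per condition and no replicate, no p-value can be given, and every interval below covers counting error at 95% and not the difference between animals.

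The library held 2349 barcodes and 17681092 UMIs on genes, with a median of 4387 UMIs per barcode and a range of 500 to 141565. Hashtag counts placed 1059 barcodes in OVX (7798694 UMIs, median 4812) and 981 in sham (6462258 UMIs, median 3704), with 78 over the cutoff for both hashtags and 231 under it for both, which entered no comparison. Clustering without the interferon-stimulated genes gave 6 clusters. The label macrophage did not describe most of them: in the library as a whole S100a8, a calprotectin subunit abundant in neutrophils, stood at 71279 UMIs per 1000000 (CPM), whereas the complement genes C1qa and C1qb stood at 0.0566 CPM each and C1qc had no UMI. Clusters of 141, 984, 357 and 540 barcodes carried S100a8, Csf3r and Cxcr2 and are called neutrophil-like, and each is named here by a leading gene or group: cycling (Top2a, Mki67), Retnlg, stefin (Stfa2, Stfa2l1) and Jaml. The name cycling describes only part of its cluster. A sub-cluster of 47 barcodes had Mki67 at 946 and Top2a at 917 CPM, and one of 94 barcodes had 46.8 and 26.6 CPM. Values of the cycling cluster cover both. The immature neutrophil gene Camp was highest in the cycling cluster (5302 CPM) and lowest of these in the Jaml cluster (81.4 CPM). A cluster of 117 barcodes led by Pf4, Arg1 and Cd74 mixed platelet, macrophage and dendritic cell markers and was left unnamed. The last, of 210 barcodes with Prg4, Dcn and a Ptprc level of 5.85 CPM, is called stromal-like, and 112 of its barcodes were under the cutoff for both hashtags.

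Type I interferons bind the receptor Ifnar1 and Ifnar2 on almost every nucleated cell, and the kinases Jak1 and Tyk2 then activate Stat2, which with Irf9 is part of the complex ISGF3. ISGF3 binds the interferon-stimulated response element in promoters and switches on genes that sense viral nucleic acid, block viral entry or replication and amplify the signal through Irf7. Neutrophils are known to carry basal RNA of several of these genes, and bone cells use the pathway to restrain osteoclast formation.

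Promoter sequences of the members were read to see which of them hold the response element, searched as GAAANNGAAA on both strands of the 300 bases around each RefSeq start (250 before it and 50 after). A promoter was on hand for 34 of the 40 genes (RefSeq, GRCm38.p6, the C57BL/6J reference and not the BALB/c genome). The motif lay in 20 of these 34 (58.8%), against 3.99% of all genes in the same table, and in 7 of 13 core genes. The gamma-activated site, searched as TTCNNNGAA, lay in 6 of 34 (17.6%), against 9.55% of all genes. Isg15 held 3 overlapping matches, with starts at -78, -72 and -66 from the RefSeq start.

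**Figure D1:**
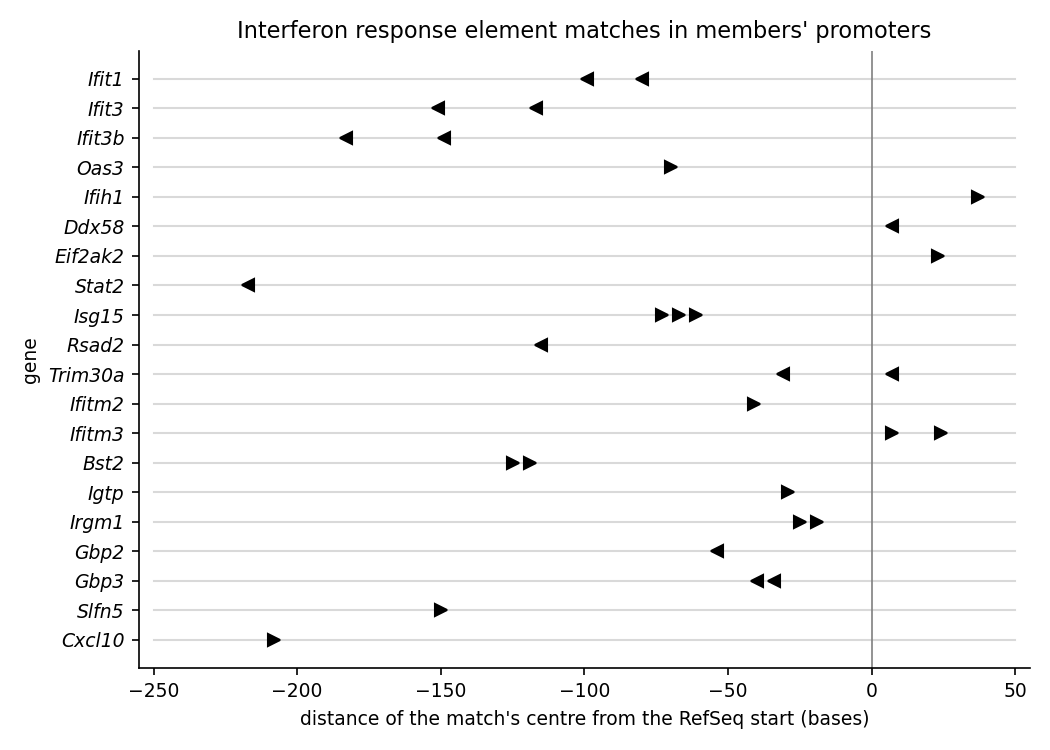
Matches to the interferon-stimulated response element in the 20 members whose promoters held any; the x axis is the distance in bases from the RefSeq start to the centre of the match, and triangles point right for the gene's strand and left for the other. The 3 matches of Isg15 and the pairs of Ifit1, Ifit3, Ifit3b and Bst2 lie before the start, whereas those of Ifih1, Ddx58, Eif2ak2 and Ifitm3 lie after it.

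The 160 bases before the start are shown for 3 classical members that hold the motif and were sparse in these cells (Isg15, Ifit1, Rsad2) and for 3 members whose levels stood higher in OVX and that hold no match in the window (Oasl2, Oasl1, Slfn1). Other members higher in OVX did hold a match (Ifih1, Irgm1, Cxcl10, Slfn5 and Trim30a), and others held none (Irf7, Irf9, Ifi44, Ifitm1 and Slfn4). A relation of the motif to the difference between conditions was not tested. Sequences run 5′ to 3′ on the strand of the gene, and capitals mark the motif. They are Isg15 at chr4:156200819-156200978 (minus strand), Ifit1 at chr19:34640729-34640888 (plus), Rsad2 at chr12:26456453-26456612 (minus), Oasl2 at chr5:114896774-114896933 (plus), Oasl1 at chr5:114923080-114923239 (plus) and Slfn1 at chr11:83116660-83116819 (plus).
Isg15: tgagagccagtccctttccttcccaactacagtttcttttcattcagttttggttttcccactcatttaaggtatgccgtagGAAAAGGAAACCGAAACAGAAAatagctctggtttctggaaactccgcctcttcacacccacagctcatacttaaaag
Ifit1: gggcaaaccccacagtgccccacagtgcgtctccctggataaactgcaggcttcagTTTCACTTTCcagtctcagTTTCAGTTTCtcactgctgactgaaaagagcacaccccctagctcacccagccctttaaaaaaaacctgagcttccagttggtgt
Rsad2: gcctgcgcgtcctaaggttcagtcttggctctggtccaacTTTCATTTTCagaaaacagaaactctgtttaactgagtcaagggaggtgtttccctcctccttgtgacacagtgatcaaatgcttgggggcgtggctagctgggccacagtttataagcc
Oasl2: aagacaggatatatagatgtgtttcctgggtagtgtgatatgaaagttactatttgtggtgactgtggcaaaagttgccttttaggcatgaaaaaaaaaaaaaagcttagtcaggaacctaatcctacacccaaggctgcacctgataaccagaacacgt
Oasl1: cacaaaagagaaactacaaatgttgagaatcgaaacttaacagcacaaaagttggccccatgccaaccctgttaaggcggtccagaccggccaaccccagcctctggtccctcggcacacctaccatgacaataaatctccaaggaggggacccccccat
Slfn1: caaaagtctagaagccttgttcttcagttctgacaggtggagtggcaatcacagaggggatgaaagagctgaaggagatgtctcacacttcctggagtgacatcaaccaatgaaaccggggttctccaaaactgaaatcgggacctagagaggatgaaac
A match is only a run of letters, and the lack of one in this window says nothing on other sites of the gene.

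Most of the RNA of these genes came from the membrane proteins and the Schlafen genes. The members held 37308 UMIs in all, or 2110 CPM. Of these, 58.9% fell to the membrane proteins (Ifitm1, Ifitm2, Ifitm3, Ifitm6 and Bst2) and 33.4% to the Schlafen genes (Slfn1, Slfn4 and Slfn5). The core list, by contrast, held 1105 UMIs, 2.96% of the total. Only 6 members reached 1000 UMIs, and 21 members had under 100, of which 7 had under 10. Each UMI stands for a molecule counted at its 3′ end whatever the length of the gene, and near-identical copies within the Ifit3, Schlafen and Ifitm families can lose reads that match more than 1 gene, so their levels are uncertain.

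Levels by cluster are given first over all barcodes and then within each condition, since the share of OVX barcodes differed between clusters (309 of OVX and 31 of sham in the stefin cluster, 341 and 529 in the Retnlg cluster). Over all barcodes the members summed to 3433 CPM (3379 to 3487) in the Retnlg cluster, 2833 in the stefin cluster, 2587 in the cycling cluster, 2502 in the Jaml cluster and 2049 in the Pf4, Arg1 and Cd74 cluster. This order did not hold within a condition. In OVX the Pf4, Arg1 and Cd74 cluster stood highest, at 4388 CPM (4142 to 4644) against 3552 in the Retnlg cluster, and in sham it stood at 1246 CPM, below the 4 neutrophil-like clusters. The stromal-like cluster was lowest in both, with 304 CPM for OVX and 446 for sham.

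The core list was at 171 CPM (151 to 191) in the Jaml cluster over all barcodes, and this cluster had the highest level in OVX (216 CPM) and in sham (111 CPM). In OVX its interval (188 to 248) overlapped that of the unnamed cluster (206 CPM, 156 to 268). The stefin cluster had 90.5 CPM over all barcodes. Within OVX it had 98.3 CPM (87.2 to 110) beside 125 (108 to 143) in the Retnlg cluster, and within sham 19.9 (7.31 to 43.3) beside 41.3 (33.5 to 50.3), so that these intervals overlapped in both conditions. The cycling cluster had 46.7 CPM in OVX and 30.9 in sham. The stromal-like cluster, which had the deepest barcodes (median 19996.5 UMIs), was at 8.22 CPM (6.0 to 11.0), and its ratio to all other cells was 0.0947 (0.0686 to 0.128). From the cycling to the Jaml cluster the core level over all barcodes was 4.21 times as high (3.22 to 5.58).

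Of the 19 members with at least 100 UMIs, 8 were highest over all barcodes in the Pf4, Arg1 and Cd74 cluster, 5 in the Jaml cluster, 3 in the cycling cluster, 2 in the Retnlg cluster and 1 in the stefin cluster. The 8 became 6 when the barcode with most UMIs of the gene was left out of each cluster, and were 12 in OVX and 4 in sham (Bst2, Eif2ak2, Stat2 and Trim30a).

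**Figure D2:**
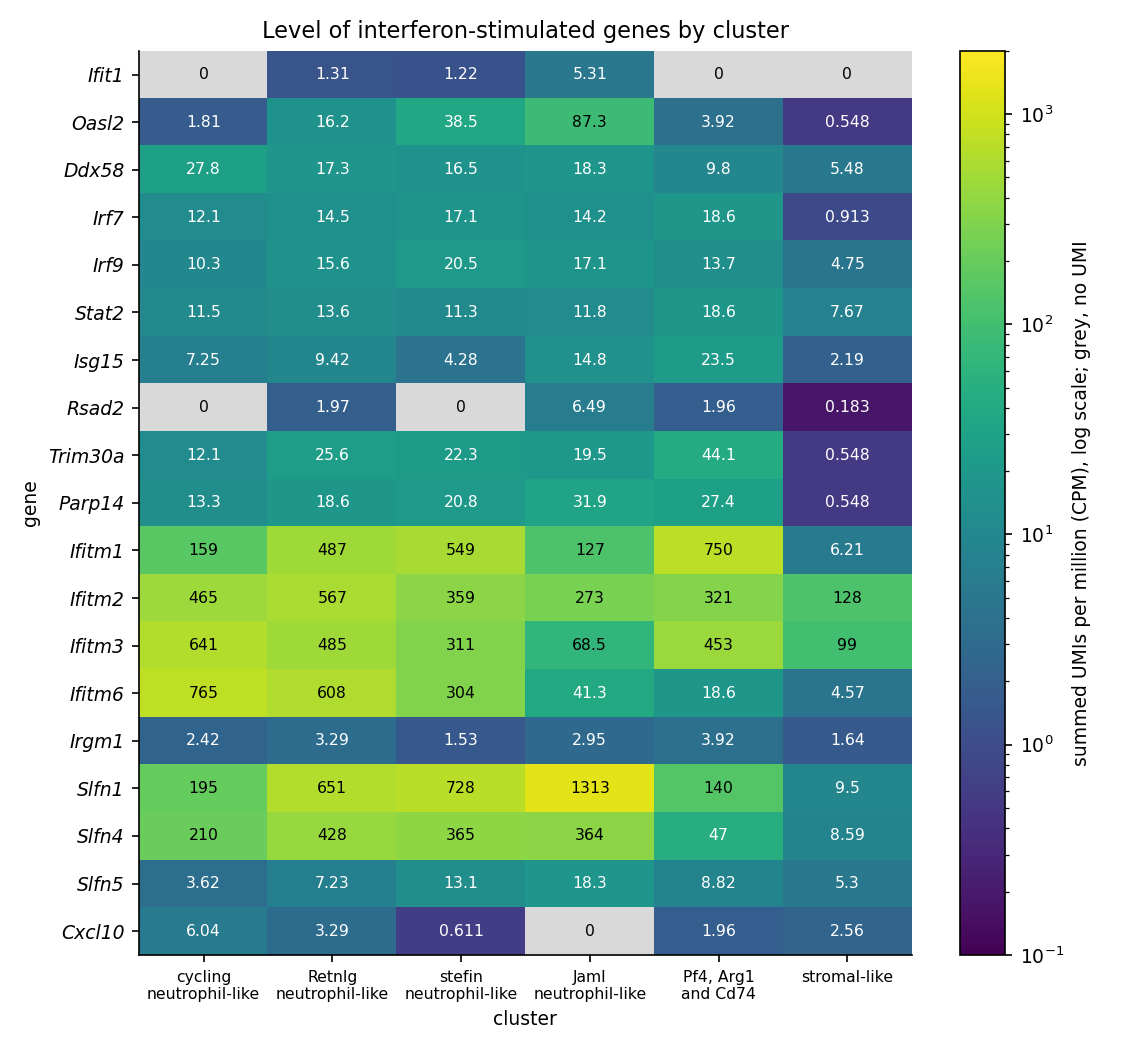
Level of 19 members (rows, grouped by role) in the 6 clusters (columns), as summed UMIs per 1000000 on a logarithmic colour scale with the value printed and grey for no UMI; there are no error bars. Slfn1 reaches 1313 CPM in the Jaml cluster and Ifitm6 765 CPM in the cycling cluster, and most genes are lowest in the stromal-like cluster.

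The Ifitm proteins sit in cell and endosome membranes and hinder viral fusion. Across the neutrophil-like clusters Ifitm6 and Ifitm3 had the order of Camp over all barcodes. Within sham the 7 immature neutrophil markers, Camp among them, summed to 18909 CPM in the stefin cluster and 13386 CPM in the Retnlg cluster. Ifitm6 stood at 765 CPM (724 to 809) in the cycling cluster, 608 in the Retnlg cluster, 304 in the stefin cluster and 41.3 (32.2 to 52.2) in the Jaml cluster, while in sham the stefin cluster (587 CPM, 504 to 681) and the Retnlg cluster (553 CPM, 524 to 584) had overlapping intervals. Within the Retnlg cluster, Ifitm6 was at 1211 CPM in the sub-cluster led by Camp and Ngp and at 116 CPM in the one led by Gm12840 and Clec4d. Ifitm3 had 641, 485, 311 and 68.5 CPM in the same clusters. Ifitm2 ranged from 273 CPM in the Jaml cluster to 567 in the Retnlg cluster and was the member with the highest level in the stromal-like cluster, at 128 CPM.

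Ifitm1 did not follow the order of Camp, at 549 CPM in the stefin cluster, 487 in the Retnlg cluster and 750 CPM (697 to 805) in the unnamed cluster. An OVX barcode of the unnamed cluster held 248 of the UMIs there, and without it the cluster was at 517 CPM (473 to 563), which overlapped the interval of the stefin cluster (524 to 575). In sham the unnamed cluster was at 351 CPM and the stefin cluster at 919 CPM. Bst2 (tetherin, which holds budding virus on the cell surface) was near 1 CPM in the neutrophil-like clusters, at 0.917 to 1.77 CPM, and reached 49.0 CPM in the Pf4, Arg1 and Cd74 cluster.

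The Schlafen genes are regulators of growth and of transfer RNA in immune cells, and Slfn1 had the reverse order over all barcodes and in OVX. It stood at 195 CPM (174 to 217) in the cycling cluster, 651 in the Retnlg cluster, 728 in the stefin cluster and 1313 (1259 to 1368) in the Jaml cluster. In sham it was lower in the stefin cluster (375 CPM) than in the Retnlg cluster (604 CPM). There the immature neutrophil markers were higher in the stefin cluster (18909 CPM) than in the Retnlg cluster (13386 CPM). After each barcode was thinned to 1000 UMIs, Slfn1 was seen in 63.9% of Jaml barcodes, 47.6% of stefin, 45.9% of Retnlg and 16.5% of cycling barcodes (83.9%, 91.0%, 78.2% and 69.5% before thinning). The stromal-like barcodes gave 1.52% thinned and 18.6% unthinned, and whether they express it was not tested. Slfn4 differed less, with 210 CPM in the cycling cluster and 364 to 428 CPM in the other neutrophil-like clusters. Slfn5 was far lower, from 3.62 CPM in the cycling cluster to 18.3 in the Jaml cluster.

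Among the OAS family, which makes or resembles the enzymes that activate RNase L, Oasl2 carried most of the signal with 358 UMIs. Its level was 87.3 CPM (73.8 to 103) in the Jaml cluster, 38.5 (32.1 to 45.9) in the stefin cluster, 16.2 (12.7 to 20.3) in the Retnlg cluster and 1.81 (0.374 to 5.30) in the cycling cluster, over all barcodes. In OVX alone it was 138 CPM (116 to 164) in the Jaml cluster, and the stefin cluster at 42.2 (35.0 to 50.4) and the Retnlg cluster at 35.1 (26.8 to 45.2) had overlapping intervals. Oasl1, which restrains translation of Irf7, was highest in the Jaml cluster in both conditions (25.3 CPM in OVX and 21.4 in sham), while in OVX the Retnlg cluster (17.0 CPM) and the stefin cluster (14.3 CPM) had overlapping intervals. Oas2 and Oas3 were below 10 CPM in every cluster, and Oas3 was at 8.98 CPM in the Retnlg cluster against 2.95 in the Jaml cluster.

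Of the factors that carry the signal, Irf7, which amplifies the response, lay between 12.1 and 18.6 CPM in all clusters but the stromal-like one (0.913 CPM). In the unnamed cluster 13 of the 19 UMIs of Irf7 lay in 1 OVX barcode, without which its level there was 5.96 CPM. Irf9 lay between 10.3 and 20.5 CPM outside the stromal-like cluster and at 4.75 CPM in it. Stat2 ranged from 7.67 CPM in the stromal-like cluster to 18.6 CPM in the unnamed one. Of the sensors of viral RNA, Ddx58 (RIG-I) stood at 27.8 CPM (20.3 to 37.1) in the cycling cluster and 5.48 CPM (3.70 to 7.82) in the stromal-like cluster, and in OVX its intervals overlapped among the neutrophil-like clusters.

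The classical early-response genes were scarce everywhere. Isg15, a ubiquitin-like protein, had 130 UMIs in 94 barcodes (4.00% of all) and ranged from 2.19 CPM in the stromal-like cluster to 23.5 (15.1 to 35.0) in the Pf4, Arg1 and Cd74 cluster, which was 10.9 (5.42 to 19.4) without 1 OVX barcode. Rsad2 (viperin) had 23 UMIs, the 4 IFIT genes together 31, Cxcl10 (a chemokine for T cells) 43 and Ifi44 7. Ifit1 was seen in 15 barcodes, and its 9 UMIs in the Jaml cluster gave 5.31 CPM. Among the interferon-inducible GTPases, which act on vacuoles that hold microbes, Irgm1 had the most UMIs, 42, and lay between 1.53 and 3.92 CPM in the 6 clusters. Parp14, an ADP-ribosyltransferase, and Trim30a, a member of the TRIM ubiquitin ligases, lay at 13.3 to 31.9 and 12.1 to 44.1 CPM outside the stromal-like cluster.

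Whether a few cells carried the program was read from the core list per barcode. No core UMI was found in 1776 barcodes (75.6%), 355 had 1, 218 had at least 2, 36 had at least 5 and 7 had at least 10. The 24 barcodes with the most (1% of all) held 228 of the 1105 core UMIs, or 20.6% (18.3 to 23.1), and 1.42% of all UMIs. They were picked on the same core UMIs, so a share above 1.42% was built in. The interval does not cover that choice, and the share alone cannot show that a few cells carry the program. Of these 24, 20 were OVX and 3 were sham. At least 3 core genes were seen together in 34 barcodes, 26 of OVX and 7 of sham, and at least 5 in 7 barcodes.

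A sham barcode of the Jaml cluster stood apart from the rest. It held 31 core UMIs from 10 core genes in 2124 UMIs, with 8 of Isg15, 7 of Rsad2, 6 of Oasl1, 3 of Ifit1 and 2 of Ifit3, which were the only UMIs of Ifit3 in the library. Another sham barcode, of the Retnlg cluster, held 10 core UMIs from 6 genes in 1149 UMIs. Several core genes were also seen together in OVX barcodes. One of the Retnlg cluster held 15 core UMIs from 8 genes in 7021 UMIs. An OVX barcode of the stefin cluster held 11 from 6 genes in 15329 UMIs. In the unnamed cluster an OVX barcode held 15 from 7 genes in 11159 UMIs, among them all 7 of Ifi44. Some other high barcodes held many UMIs of 1 gene. An OVX barcode of the unnamed cluster held 13 of the 130 UMIs of Isg15 and no other core gene. Another held 13 of the 190 of Irf7 among 16 core UMIs from 4 genes. An OVX barcode of the Retnlg cluster held 9 of the 43 UMIs of Cxcl10. Oasl2 had no such single barcode, since its 358 UMIs lay in 220 barcodes with at most 8 in any of them. It was not evenly spread, as the 1% of barcodes with most Oasl2 UMIs held 27.7% of them. The same share for the core list was 20.6%, and both come from barcodes picked on the same counts.

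**Figure D3:**
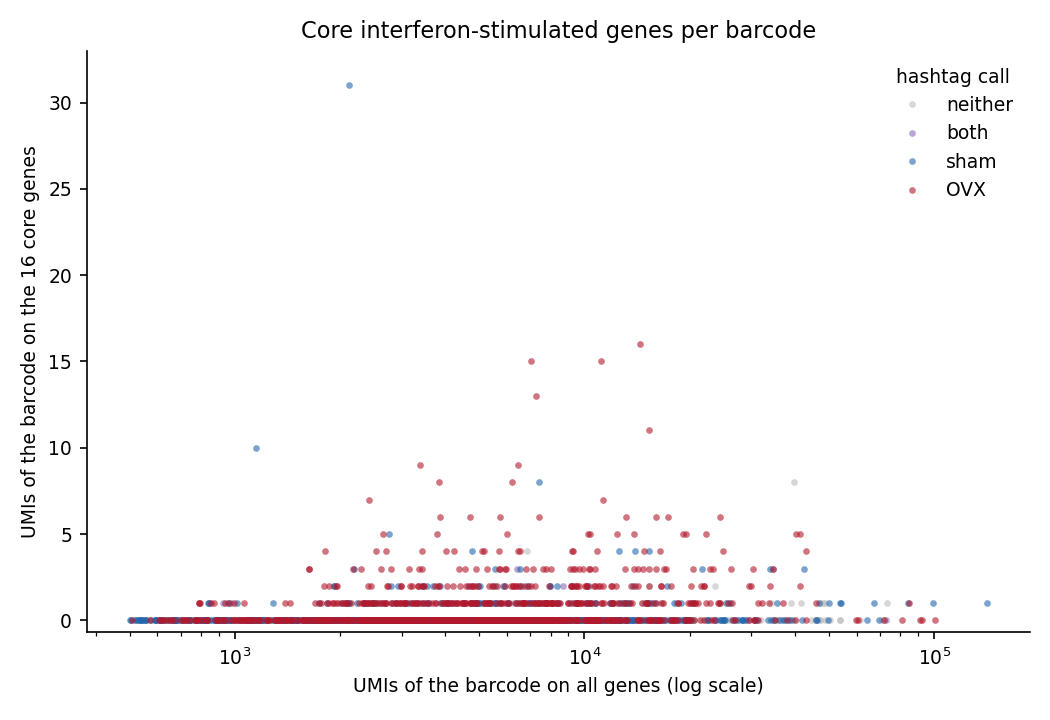
UMIs on the 16 detected core genes (y axis) against UMIs on all genes (x axis, logarithmic) for each of the 2349 barcodes, coloured by hashtag call; points overlap at low counts. A sham barcode lies at 31 core UMIs, 5 OVX barcodes lie between 11 and 16, and 1776 barcodes lie at 0.

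OVX cells had more RNA of the core list than sham cells, and a large part of the difference was Oasl2. The core list had 799 UMIs in OVX, 102 CPM, and 237 in sham, 36.7 CPM, a ratio of 2.79 (2.41 to 3.24). Without Oasl2 the ratio was 1.85 (1.57 to 2.18), on counts that were not thinned. After thinning to 1000 UMIs per barcode the whole core list had a ratio of 1.82, and the list without Oasl2 was not summed. In that setting Oasl2 had 73 UMIs in OVX and 7 in sham. The other core genes with at least 10 UMIs in a condition were Isg15 (15 and 18), Irf7 (13 and 15), Oasl1 (13 and 10) and Rtp4 (11 and 2). Of these, Isg15 and Irf7 had ratios below 1 (0.739 and 0.768), and Oasl1 had 1.15. Only Rtp4 had an interval above 1 (ratio 4.87, 1.06 to 45.3). A higher level in OVX at equal depth was thus not shown for the core list without Oasl2. For the sum of the 40 genes the levels were 2581 CPM in OVX and 2148 CPM in sham, a ratio of 1.20 (1.18 to 1.23), and 1.10 without Slfn1. Of 14 members at a mean of 10 CPM or more, 3 were at least 2-fold higher in OVX (Oasl2, Irf7 and Irf9) and 0 at least 2-fold lower, where 1.57% of all 6751 genes at that level were as much higher and 3.13% as much lower. With no floor other than 1 UMI in each condition, 10 members were 2-fold higher and 3 were 2-fold lower, where 5.87% of all 15157 such genes were as much higher and 11.9% as much lower. The median ratio of the 14 was 1.38, and that of all 6751 genes was 0.864 (-0.21 on the log2 scale), so that a gene with equal CPM in both conditions stood above the median gene.

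Oasl2 had 319 UMIs in OVX and 22 in sham, or 40.9 against 3.40 CPM, and its ratio of 12.0 (7.80 to 19.4) ranked 6 among the 6751 genes. It was seen in 185 of 1059 OVX barcodes (17.5%) and 21 of 981 sham barcodes (2.14%). Of the stromal-like barcodes, with a median of 19996.5 UMIs, 3 of 210 (1.43%) had it. Whether these UMIs came from the cells or from free RNA was not tested. With barcodes thinned to 1000 UMIs, 6.03% (4.65 to 7.68) of OVX and 0.781% (0.315 to 1.60) of sham barcodes had it. The ratio ranged from 9.24 to 13.9 over all other settings tried.

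Oasl2 was higher in OVX, with an interval above 1, in each neutrophil-like cluster but the cycling one, where no difference was detectable at this depth. In the Jaml cluster it had 131 UMIs in OVX and 11 in sham (138 and 15.7 CPM, ratio 8.79, 4.76 to 18.0), although barcodes of the conditions were near equal in number there (276 and 241). In the Retnlg cluster it had 60 and 7 UMIs (35.1 and 2.95 CPM, ratio 11.9, 5.44 to 30.9). In the stefin cluster, with 309 OVX and 31 sham barcodes, it had 121 and 1 UMIs (ratio 12.7, 2.24 to 506). The cycling cluster had 2 and 1 UMIs, the stromal-like cluster 1 and 2, and the unnamed cluster 4 and 0 (lower end of the interval of the ratio 1.72). Within the Retnlg cluster the sub-cluster led by Camp and Ngp had 3 and 4 UMIs (4.02 and 4.00 CPM). That led by Gm12840 and Clec4d had 26 and 3 (48.4 and 2.42 CPM). That led by Gm42418, with 125 OVX and 59 sham barcodes, had 31 and 0. Its barcodes were the shallowest of the 3, with a median of 2349 UMIs beside 6214.5 and 3576 in the sub-clusters named before it. It also held 21 of the 34 barcodes of the Retnlg cluster that were over both hashtag cutoffs. The 7 immature neutrophil markers summed lower in OVX than in sham in every neutrophil-like cluster, as in the Jaml cluster (860 and 2641 CPM). The part of that difference in the ratios by cluster, of Oasl2 or of other members, was not tested.

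Oasl1 was also higher in OVX, with 98 UMIs against 30 (12.6 and 4.64 CPM, ratio 2.71, 1.78 to 4.22), although thinning left 13 UMIs against 10 and an interval that held 1 (ratio 1.15, 0.467 to 2.94). Its clusters differed from those of Oasl2, with 29 against 6 UMIs in the Retnlg cluster (ratio 6.72, 2.74 to 19.8), 41 against 0 in the stefin cluster (lower end of the interval 1.12) and 24 against 15 in the Jaml cluster (ratio 1.18, 0.595 to 2.42). Oas2 had 46 UMIs in OVX and 12 in sham (ratio 3.18, 1.66 to 6.59), whereas Oas3, with 30 and 28, had a ratio of 0.888 (0.513 to 1.54). The 4 OAS genes together stood at 63.2 CPM in OVX and 14.2 in sham.

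Irf7 had 138 UMIs in OVX and 46 in sham (17.7 and 7.12 CPM, ratio 2.49, 1.77 to 3.55). This ratio depended on how barcodes were weighted: it was 1.94 with equal weight per barcode, and thinning left 13 UMIs in OVX and 15 in sham (ratio 0.768, 0.336 to 1.73). Irf9, the DNA-binding part of ISGF3, had 139 and 57 UMIs (17.8 and 8.82 CPM, ratio 2.02, 1.47 to 2.80), and its ratio was from 1.97 to 2.76 in all settings. Thinning left Irf9 with 18 and 7 UMIs and an interval that held 1 (ratio 2.28, 0.908 to 6.46). Stat2, its partner, had 88 and 78 UMIs (11.3 and 12.1 CPM, ratio 0.935, 0.681 to 1.28), and after thinning 9 and 20 UMIs (ratio 0.399, 0.160 to 0.916).

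The Schlafen genes stood higher in OVX by summed UMIs, although Slfn5 turned to a ratio of 0.980 with equal weight per barcode and to 0.696 after thinning. Slfn1 had 5095 UMIs in OVX and 2515 in sham (653 and 389 CPM, ratio 1.68, 1.60 to 1.76), and its ratio was above 1 in all 4 neutrophil-like clusters, from 1.19 (1.10 to 1.28) in the Retnlg cluster to 2.05 (1.70 to 2.50) in the stefin cluster. In each of these 4 clusters the 7 immature neutrophil markers summed lower in OVX than in sham. They were at 9815 and 13386 CPM in the Retnlg cluster and 5755 and 18909 CPM in the stefin cluster. The part of that difference in the Slfn1 ratios was not tested. Slfn4, with 305 and 234 CPM, had a ratio of 1.31 (1.22 to 1.39), which was 1.00 with equal weight per barcode. Slfn5, with 101 and 46 UMIs, had a ratio of 1.82 (1.27 to 2.64).

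The Ifitm genes did not share a direction. Ifitm1 stood at 410 CPM in OVX and 279 in sham (ratio 1.47, 1.39 to 1.56) and Ifitm6 at 329 and 322 (ratio 1.02, 0.965 to 1.08). Ifitm3, at 290 and 385 CPM, had a ratio of 0.752 (0.710 to 0.796), and 0.870 relative to the median gene. Ifitm2, at 352 and 392 CPM, had a ratio of 0.90 (0.85 to 0.95), which turned to 1.04 relative to the median gene. In the stefin cluster all 4 had ratios below 1, from 0.467 (0.396 to 0.553) for Ifitm6 to 0.558 for Ifitm1, and there the 7 immature neutrophil markers summed to 5755 CPM in OVX and 18909 CPM in sham. The part of that difference in the Ifitm values was not tested.

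**Figure D4:**
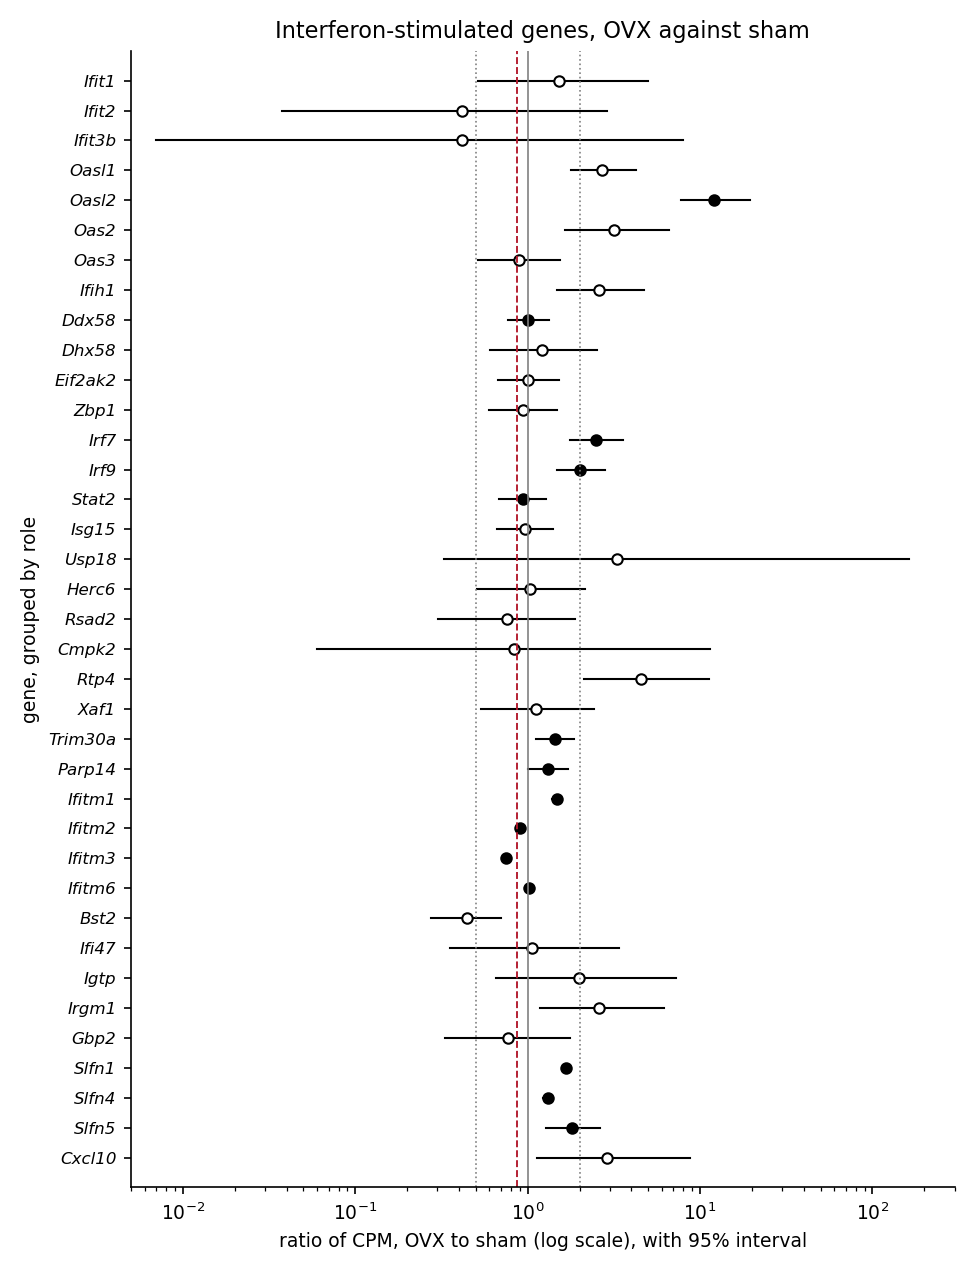
Ratio of CPM in OVX to sham (x axis, logarithmic) with its 95% counting interval for the 37 members with a UMI in both conditions, grouped by role; filled points had a mean of at least 10 CPM, the solid line is 1, dotted lines are 2-fold and the dashed line is the median of all genes at 10 CPM (0.864). Oasl2 at 12.0 lies apart from the others, and Bst2 at 0.443 is the lowest with an interval below 1.

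Of the other members at 10 CPM or more, Trim30a had a ratio of 1.44 (1.12 to 1.86), Parp14 of 1.31 (1.01 to 1.71, and 0.760 after thinning) and Ddx58 of 1.01 (0.770 to 1.33). Under that level, 26 members were seen, of which 7 had an interval above 1, 1 below and 18 that held 1, where 2.8% of the 12051 genes under that level had an interval above 1 and 9.72% below. Those above were Oasl1, Oas2, Ifih1 (the RNA sensor MDA5, 53 and 17 UMIs, ratio 2.58, 1.47 to 4.76), Rtp4 (44 and 8 UMIs, ratio 4.56, 2.12 to 11.2), Irgm1 (28 and 9, ratio 2.58, 1.18 to 6.21, and 10.03 with equal weight per barcode), Cxcl10 (21 and 6, ratio 2.90, 1.13 to 8.78, but 1.99 without the barcode with most UMIs in each condition and 1.41 with the hashtag rule of 80%) and Ifi44, whose 7 UMIs all lay in 1 OVX barcode. Bst2, with 31 and 58 UMIs, had a ratio of 0.443 (0.277 to 0.696). Its level was highest in the Pf4, Arg1 and Cd74 cluster, which held 271670 UMIs on all genes in OVX and 706416 in sham. The part of this in the ratio was not tested. These genes below the floor, other than Cxcl10 and Irgm1, were named after their values were seen. No difference was detectable for Isg15 over all cells, with 65 and 56 UMIs (8.33 and 8.67 CPM, ratio 0.962, 0.662 to 1.40, but 0.588 with equal weight per barcode), nor for Rsad2 with 11 and 12 UMIs or Ifit1 with 11 and 6, whose intervals still allow a ratio of up to 1.88 for Rsad2 and 5.0 for Ifit1.

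By cluster, the core list without Oasl2 had a ratio of 2.34 (1.79 to 3.06) in the Retnlg cluster, 3.38 (1.42 to 10.6) in the stefin cluster, 1.48 (0.836 to 2.66) in the cycling cluster and 0.815 (0.578 to 1.15) in the Jaml cluster. Its level in the Jaml cluster was thus 78.1 CPM in OVX and 95.8 CPM in sham, where 1 sham barcode held 30 of the 67 UMIs. Without that barcode sham was at 53.0 CPM and the ratio was 1.47 (0.979 to 2.25). The largest ratio was in the unnamed cluster, at 191 against 25.5 CPM (7.51, 4.32 to 13.6), from 36 OVX and 61 sham barcodes with 52 and 18 UMIs. Of the 52 UMIs, 13 were Isg15 in 1 OVX barcode and 13 were Irf7 in another. Of the barcodes, 12 of OVX and 9 of sham lay in a sub-cluster with a median of 83.8% mitochondrial UMIs. In the unnamed cluster the 7 dendritic cell markers, of which Xcr1 and Siglech were at 0, summed to 6063 CPM in OVX and 242 CPM in sham, and the 10 macrophage markers to 4207 and 5664 CPM. Their part in the ratio was not tested.

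**Figure D5:**
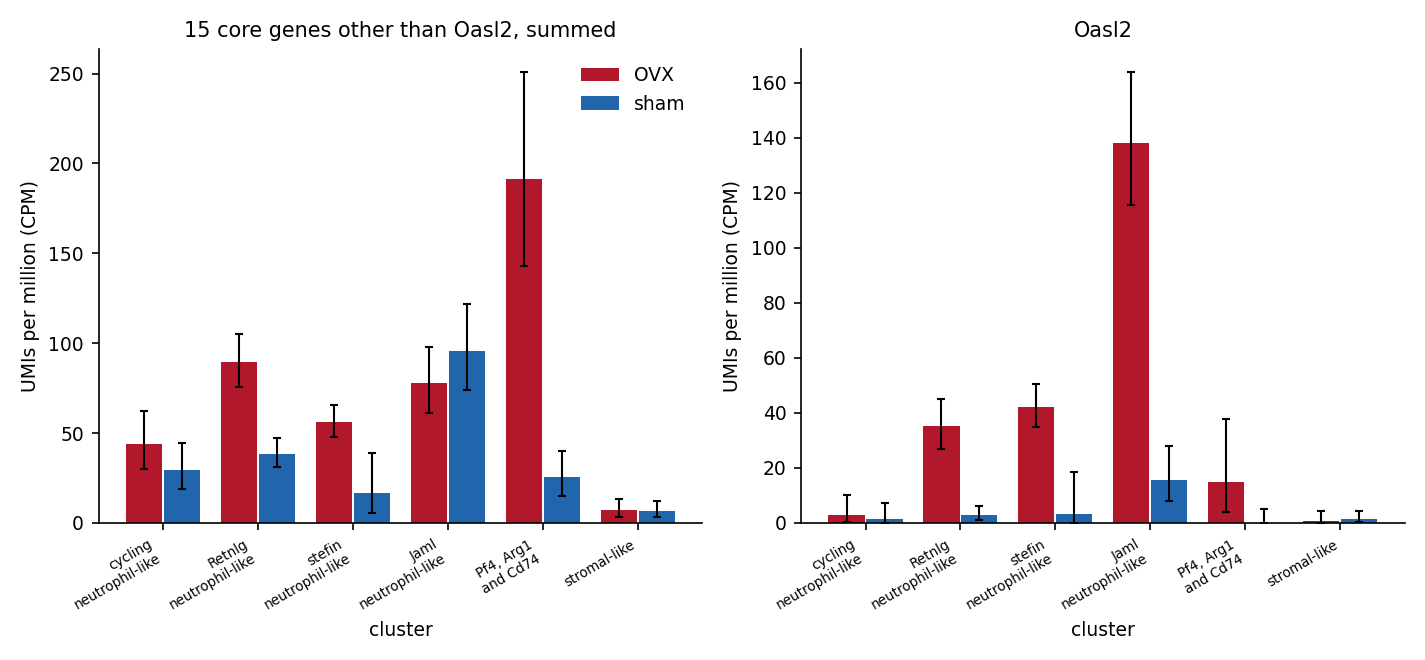
Summed level of the 15 core genes other than Oasl2 (left) and level of Oasl2 (right) in OVX and sham cells of each cluster, as UMIs per 1000000 from 0 with 95% Poisson intervals. OVX and sham bars of Oasl2 are 138 and 15.7 CPM in the Jaml cluster, where the other core genes are 78.1 and 95.8 CPM, and 53.0 CPM in sham without 1 barcode.

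The rest of the pathway was read from a list of 29 genes, of which 28 were in the matrix and 22 had a UMI. None of the 5 interferons on the list (Ifnb1, Ifna4, Ifng, Ifnl2 and Ifnl3) had a UMI in any barcode. Both chains of the receptor were present, Ifnar1 at 49.5 CPM in OVX and 49.5 in sham and Ifnar2 at 117 and 118 CPM. Of 17 pathway genes at a mean of 10 CPM or more, 0 were 2-fold higher and 0 were 2-fold lower in OVX. Of all 6751 genes at that level, 1.57% were as much higher and 3.13% as much lower, so 17 genes are too few to show a share below these. Ratios with intervals above 1 included Jak2, a kinase of the interferon gamma receptor (1.32, 1.20 to 1.45), and Irf5, a factor downstream of Toll-like receptors (1.44, 1.13 to 1.85). Jak1, at 175 and 170 CPM, had a ratio of 1.03 (0.948 to 1.11), and Tyk2, at 10.8 and 11.3 CPM, of 0.953 (0.688 to 1.32). Irf8, a factor of monocytes and dendritic cells, had a ratio of 0.525 (0.385 to 0.713) over all cells. It stood at 165 CPM in the Pf4, Arg1 and Cd74 cluster and at 0.657 to 2.14 CPM elsewhere. Within that cluster Irf8 was at 202 CPM in OVX and 154 in sham (ratio 1.31, 0.931 to 1.83). The cluster held 36 OVX and 61 sham barcodes, and the part of this in the ratio over all cells was not tested. Socs1, a feedback inhibitor of the receptor's kinases, had a ratio of 1.18 (1.03 to 1.36), and Socs3 of 0.976 (0.855 to 1.11).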

How the data were processed

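The deposited values are raw UMI counts (whole numbers, not normalized) of 32285 genes and the hashtags per cell barcode, which the authors made with Cell Ranger on mm10. Its version is 6.0.0 in the file's header and 6.0.1 in the submitters' processing notes. Hashtag UMIs were read from the same matrix, and the second library of hashtag reads was not used here. The labels give 1037 OVX and 1084 sham cells loaded, beside the 1059 and 981 barcodes assigned here. No barcode was repeated and no doublet caller was run. Barcodes over or under both hashtag cutoffs entered no comparison of OVX with sham, and were kept in values over all barcodes.

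Barcodes were assigned by HTODemux (Seurat 5.3.0, R 4.3.3, positive quantile 0.99). Clusters came from scanpy 1.11.5 and Louvain clustering (igraph 0.11.9): counts scaled to 10000 per barcode, log, 2000 variable genes with the members left out, 30 components and 15 neighbors, with resolution raised to the first value (0.25) that gave 6 clusters of at least 10 barcodes. Cluster names came from marker lists. Levels are UMIs summed over barcodes per 1000000 (CPM). Intervals are exact: Poisson for CPM, conditional binomial for ratios, Clopper-Pearson for shares. Molecules in 1 barcode are not independent, so they cover counting error only. Coordinates are those of GENCODE and RefSeq on GRCm38. A self-test on simulated counts was run before the comparisons.

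The members, the core list, the pathway list and the markers were chosen with earlier results of these data known. Genes named are members at a mean of 10 CPM or more over OVX and sham, members past 2-fold, the member with most UMIs in each role group and the pathway list. The alternatives were another hashtag rule (1 hashtag holding at least 80% of at least 10 hashtag UMIs), a filter on barcodes (500 genes and at most 10% mitochondrial UMIs), equal weight per barcode, equal composition of clusters, scaling by the median ratio, thinning to 1000 UMIs (which left out 48 OVX and 85 sham barcodes), other floors and other clusterings. Sub-clusters, and values without Slfn1, without Oasl2, without shallow sub-clusters or without the top barcode of a cluster, and the highest cluster within each condition, were added after seeing the data.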

Additional observations from a re-analysis of the deposited data

Results flagged for a closer look

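For 5 members the ratio of OVX to sham had an interval above 1 in one cluster and below 1 in another, with a limit of at least 20 UMIs. The same count over all genes was not made, so whether 5 members are many cannot be said. The difference between clusters was not tested, since there is 1 pool per condition.

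Isg15 had a ratio of 7.80 (2.97 to 24.0) in the Pf4, Arg1 and Cd74 cluster, from 18 UMIs in OVX and 6 in sham, and of 0.287 (0.101 to 0.720) in the Jaml cluster, from 7 and 18 UMIs. A single barcode held 13 of the 18 UMIs and another 8 of the 18 in the Jaml cluster. Without the top barcode of each condition the ratios were 2.58 (0.593 to 11.2) and 0.442 (0.132 to 1.34), so both intervals then held 1.

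Ifitm1 had a ratio of 5.41 (4.64 to 6.32) in the unnamed cluster and 0.395 (0.295 to 0.524) in the cycling cluster. Of the 516 UMIs in OVX in the unnamed cluster, 248 lay in 1 barcode, and of the 189 in sham in the cycling cluster, 84 lay in 1 barcode. Without the top barcodes the ratios were 4.4 (3.61 to 5.38) and 0.564 (0.397 to 0.792).

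Ifitm2 had a ratio of 3.53 in the unnamed cluster (685 CPM in OVX and 194 in sham) and 0.532 in the stefin cluster (327 and 614 CPM). Ifitm3 had a ratio of 2.41 in the unnamed cluster (817 and 340 CPM) and 0.221 in the stromal-like cluster (45.6 and 206.5 CPM), from 38 OVX and 54 sham barcodes. Ifitm6 had a ratio of 1.38 in the cycling cluster (918 and 665 CPM) and 0.316 in the Jaml cluster (22.2 and 70.0 CPM, from 21 and 49 UMIs). Without the top barcodes these 6 ratios lay between 0.212 and 3.13 and kept their side of 1. In the unnamed cluster the dendritic cell markers also differed, with 6063 CPM in OVX against 242 in sham, and their part in these ratios was not tested.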

How the results depend on the processing

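The sum of the members stayed higher in OVX under every alternative run (1.20 as reported): 1.36 with the hashtag rule of 80%, 1.13 with equal weight per barcode, 1.09 with equal composition of clusters, 1.12 without the stromal-like cluster, 1.39 scaled by the median ratio of all genes (0.864), 1.14 thinned to 1000 UMIs and 1.10 without Slfn1. The core list (2.79) also did: 3.25 with the hashtag rule, 2.15 with equal weight, 1.82 thinned and 1.85 without Oasl2. The core list without Oasl2 was not summed after thinning, so its 1.85 holds for counts that were not thinned. The count of members 2-fold higher (3) was 1 at a floor of 20 CPM, 10 with no floor other than 1 UMI in each condition and 5 at a 1.5-fold limit. The count 2-fold lower (0) was 1 after thinning, 1 at a floor of 5 CPM and 3 with no floor. The share of core UMIs in 1% of barcodes (20.6%) was 33.5% thinned and 16.3% when ranked by core UMIs per UMI. The ratio of the highest to the lowest cluster (4.21) was 2.66 with 1000 variable genes. Of 150 recomputed ratios of 19 single members, 112 stayed within the counting interval, 37 left it, and 1 of a gene past 2-fold changed sides of 1 (Irf7, 0.768 after thinning, on 13 and 15 UMIs). Causes were not tested. Depth leaves the 21 members with under 100 UMIs, 7 of them with under 10, with the widest intervals. No paired analysis was possible because each condition is 1 pool in 1 library.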
